A study of Brassica napus with 48 samples.

Results

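In seeds of *Brassica napus* (rapeseed), 47 of the 101040 listed genes had transcripts in the hybrid Solar and none in the hybrid Lumen at 14 days after flowering (DAF), in plots sown late. They were chosen by their level in TPM, a share of all transcripts scaled by transcript length: at least 5 TPM in each of 6 Solar libraries, and 0 in each of 6 Lumen libraries. The deposited values were rounded to whole numbers, so 0 stands for anything that rounded to 0. The difference between Solar and Lumen in those 12 libraries is therefore what defined the genes. It is given as a description, without a test.

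The study grew both spring hybrids in the field and collected seeds from 25 siliques on each of 5 plants per plot. The 48 libraries formed 16 groups of 3 replicates: Lumen or Solar, control plots or shading, optimal or late (delayed) sowing, and 7 or 14 DAF. Shading lowers the source–sink (S–S) ratio. Shaded plots were under nets, which took away 75% of the light, from first flower until 15 DAF, so the seeds at 7 and 14 DAF were sampled under the nets. Control plots had none. The 3 replicates are those of a split–split-plot field design.

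Rapeseed is an allotetraploid: its A chromosomes descend from a *Brassica rapa* ancestor and its C chromosomes from a *Brassica oleracea* ancestor, and most genes have a related copy (homoeolog) on the other subgenome. Rapeseed cultivars are known to differ in which genes they carry, and stretches of an A chromosome can replace the matching stretch of a C chromosome or the reverse. The reads were assigned to a single reference transcriptome, that of another cultivar. A gene listed at 0 may be missing, silent or too different from this reference to take up reads, and these cannot be told apart in the table. No sequence of the genes was used here, so they are identified by their names in that annotation, in which the letters and digits after "Bna" give the chromosome.

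Facts of all libraries bear on the results. The TPM of a library summed to 908993 to 1219379, and 51583 to 56691 of its genes were above 0. The number of reads behind a TPM value is not known from the table. Several libraries labelled Solar stood apart in the 47 genes: 2 of them, both replicate 2 at 7 DAF in the optimal sowing date, had 1 and 2 of these genes above 0. Their values are given one by one further on, and the results that rest on them also without them. Of 23 Arabidopsis marker loci listed for embryo and seed storage, seed coat and fruit wall, 4 could be matched to rapeseed genes. The seed coat gene *TT4* (chalcone synthase) was detected through BnaA10g19670D in every library, between 8 and 795 TPM. Its other matched copies, BnaA03g04590D and BnaC03g06120D, fell to 0 TPM in the lowest library and had medians of 10 and 10.5 TPM. The single matched oleosin, BnaA07g14960D, had a median of 0 TPM and reached 14 TPM. *SHP1*, known from the fruit valve margin and the ovule, was detected through BnaA07g18050D between 7 and 23 TPM in all libraries. Its copy BnaC08g29520D lay between 3 and 22 TPM, and the *SHP2* gene BnaUnng05090D between 11 and 37 TPM. In bulk tissue, a lower level may come from fewer cells of a type or from less RNA per cell, and these cannot be told apart.

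Of the 47 genes, 31 were named on the C subgenome and 16 on the A subgenome. Among the 24475 genes with at least 5 TPM in all 6 Solar libraries, 54.1% were on the C and 45.6% on the A subgenome, against 66.0% and 34.0% of the 47 genes. A named chromosome held 41 genes, spread over 16 chromosomes, and the other 6 were on unplaced A or C sequence.
Chromosome C05 held 11 of them, which is 23.4% of the set, whereas 5.75% of the detected genes lay there. C02 and C09 followed with 4 genes each, and A04, A08 and C08 held none. Most of the excess on C05 came from a run of 7 genes. The shares are counts of genes, which are not independent when they lie side by side.

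**Figure D1:**
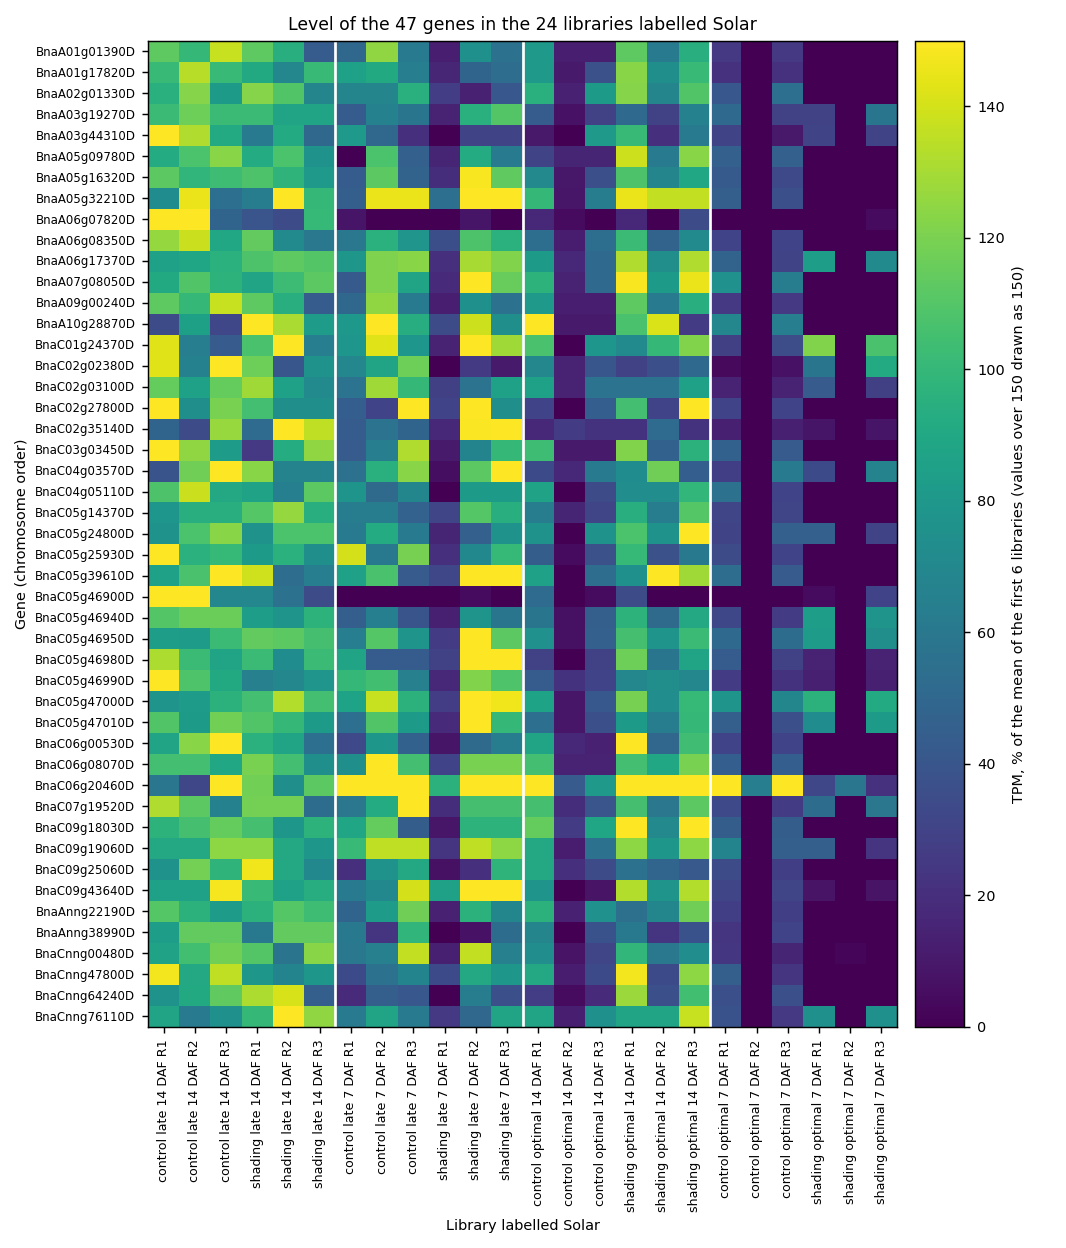
Level of the 47 genes (rows, in chromosome order) in the 24 libraries labelled Solar (columns), as a percentage of the gene's mean in the first 6 columns, the late-sown libraries at 14 DAF. White lines part the 4 settings. The libraries of optimal sowing at 7 DAF (right) are dark for most genes, and replicate 2 of both treatments there is at 0 in nearly all rows.

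In the 6 Solar libraries, the mean level per gene ran from 6.33 to 204 TPM with a median of 15.5 TPM, and 34 genes had a mean of 10 TPM or more. TPM are scaled by transcript length, so these levels can be set side by side. For all genes with at least 5 TPM in each of these libraries, the median of the means was 15.8 TPM, so the set lay at the level usual for detected genes. Its members varied more between the 6 libraries: the median coefficient of variation (CV) was 27.2%, and for all such genes it was 15.2%. This is a description, since the rule acted on the same values.

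The highest gene was BnaA06g17370D, for which no function was listed. It had 175, 180 and 195 TPM in the control libraries and 220, 230 and 224 TPM in the shaded libraries (replicates 1 to 3), a mean of 204 ± 23.8 TPM (SD, n = 6). Its highest control value lay below its lowest shaded value. BnaA05g16320D carries a DAD/Ost2 domain and has the Arabidopsis ortholog AT1G32210 (*DAD1*), a subunit of the oligosaccharyltransferase that attaches sugar chains to proteins in the endoplasmic reticulum. It had 92, 81 and 85 TPM in control and 89, 80 and 66 TPM in shaded libraries, and the groups overlapped. The third gene with a mean above 50 TPM, BnaC05g46950D, had 51, 50 and 62 TPM in control and 69, 68 and 64 TPM in shaded libraries.

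The other 7 of the 10 highest genes lay between 27.3 and 42.8 TPM. BnaC05g25930D had 42.8 ± 11.6 TPM and BnaCnng00480D 38.2 ± 9.28 TPM (SD, n = 6), both without a listed function. BnaA10g28870D spread most among the 10 highest genes, from 12 to 88 TPM. BnaC06g00530D (36.5 ± 12.1 TPM) and BnaA07g08050D (33.0 ± 3.22 TPM) had no listed function either. BnaC03g03450D belongs to the Dim1 family, with the Arabidopsis ortholog AT5G08290, a part of the spliceosome, the complex that removes introns. It had 42, 35 and 23 TPM in control and 7, 26 and 35 TPM in shaded libraries. BnaC02g02380D, with the fold of chalcone isomerase, an enzyme family of flavonoid synthesis and its relatives, had 39, 18 and 43 TPM in control and 32, 11 and 21 TPM in shaded libraries.

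The readable part of the study's annotation lists 19 of the 47 genes and gives a description for 7 and an Arabidopsis ortholog for 4, so most functions are unknown here. None of the 47 names was matched in the RefSeq gene table. Besides the genes above, BnaA06g08350D encodes a ribosomal protein of the S12/S23 family (16.7 ± 5.16 TPM, SD, n = 6). BnaA03g19270D encodes a cystatin, an inhibitor of cysteine proteases (13.7 ± 1.51 TPM). BnaC09g25060D has a domain of hAT-like transposases, the enzymes of a class of mobile DNA (14.3 ± 4.08 TPM). BnaC06g20460D has a chlorophyll A-B binding domain and the ortholog AT3G22840 (*ELIP1*), an early light-induced protein of the chloroplast, and lay between 6 and 38 TPM.

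Another copy with the same Arabidopsis ortholog was listed for 2 of the 4 genes with an ortholog. For AT5G08290, the copy BnaA10g23070D had 27.3 ± 6.92 TPM in the 6 Solar and 27.3 ± 3.72 TPM in the 6 Lumen libraries (SD), so a transcript of this family was present in Lumen too, at the level of Solar. For *ELIP1*, the copy BnaA03g36810D lay between 0 and 14 TPM in Solar and between 0 and 3 TPM in Lumen, and these ranges overlap. Other copies may exist, since the annotation read here covers 5779 genes. BnaA09g00240D and BnaA01g01390D had exactly the same value in all 48 libraries, so their reads cannot be assigned to either gene. They are a single measurement (16.0 ± 5.02 TPM, SD, n = 6), though the counts given here hold them as 2 genes.

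The limits of the rule passed close to other genes. In 11 of the 47 genes the lowest Solar value was exactly 5 TPM, among them BnaA03g44310D (mean 9.83 TPM), BnaC05g39610D (9.33 TPM) and BnaCnng76110D (8 TPM). A further 14 genes were at 0 in all Lumen libraries but had a lowest Solar value of 4 TPM, led by BnaA03g15970D with a mean of 36.7 TPM. Another 45 genes met the Solar limit but reached 1 TPM in a Lumen library, led by BnaC07g00410D (81.0 TPM), BnaA08g22270D (67.2 TPM) and BnaC09g15380D (55.5 TPM). Genes with nearly the same pattern thus lay on both sides of the limits.

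The run on C05 reached from BnaC05g46900D to BnaC05g47010D and held 7 of the 47 genes among 12 consecutive gene names. They were BnaC05g46900D, BnaC05g46940D, BnaC05g46950D, BnaC05g46980D, BnaC05g46990D, BnaC05g47000D and BnaC05g47010D. Their means in Solar ran from 6.83 TPM (BnaC05g46980D) to 60.7 TPM (BnaC05g46950D). Of the 5 other genes inside the run, 3 were at 1 TPM or less in all 6 Solar libraries. The other 2 were detected in both hybrids, with far lower means in Lumen in the libraries of the rule. BnaC05g46930D had 64.0 ± 22.4 TPM in Solar and 4.67 ± 0.516 TPM in Lumen (SD, n = 6 each). BnaC05g46920D had 70.3 ± 32.5 TPM in Solar and 1.33 ± 1.75 TPM in Lumen (SD, n = 6 each). In the other libraries labelled Lumen, BnaC05g46930D reached at most 3 TPM. BnaC05g46920D reached 33 TPM there, within its range of 10 to 98 TPM in the 6 Solar libraries. No function was listed for the 7 genes. The next closest pair of the 47 genes on any chromosome, BnaA06g07820D and BnaA06g08350D, lay 53 gene names apart.

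Most genes around this run were also lower in Lumen, though not at 0. From BnaC05g46610D to BnaC05g48200D, 55 other genes had a mean of at least 5 TPM in Solar, and the median of their Lumen level was 51.9% of the Solar level (quartiles 44.6 and 60.0%). In 34 of these 55 genes all 6 Solar libraries lay above all 6 Lumen libraries. Over the 29148 genes outside the set with such a Solar mean, 9.83% did so, and the median Lumen level was 98.0% of Solar. In the stretch just before it, from BnaC05g44010D to BnaC05g46600D, the median was 101% over 101 genes, with 9 genes not overlapping. Just after it, the windows of 20 gene names up to BnaC05g49000D had medians between 113 and 220%, in Lumen's favour. The borders of the stretch were set after the values were seen, so its median is a description. Some of the 55 genes went the other way. BnaC05g47890D had a mean of 7.50 TPM in Solar and 264 TPM in Lumen. BnaC05g46830D, BnaC05g47160D, BnaC05g47590D and BnaC05g47960D were at 110 to 140% of Solar.

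**Figure D2:**
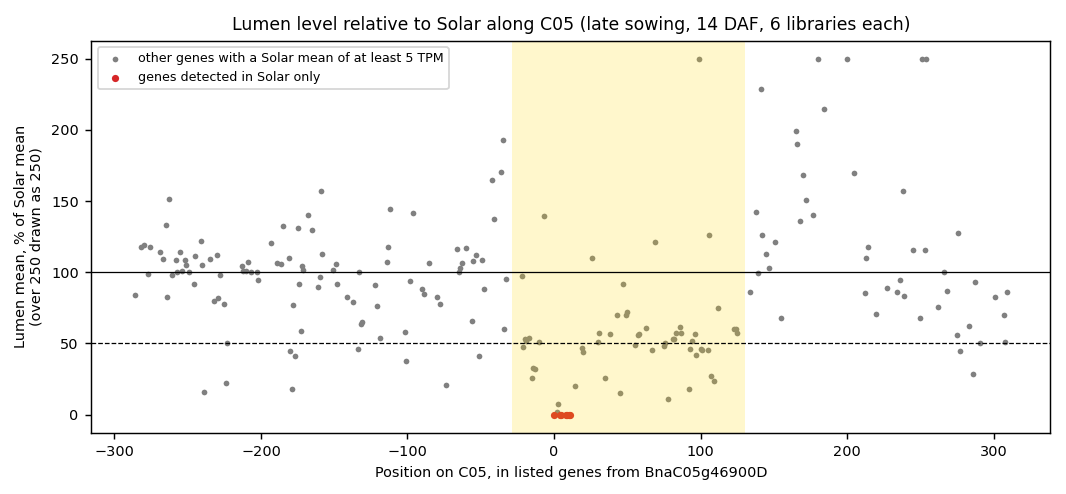
Lumen mean as a percentage of the Solar mean (late sowing, 14 DAF, 6 libraries each) for genes along C05 with a Solar mean of at least 5 TPM. The horizontal axis counts listed genes from BnaC05g46900D, red points are the 7 genes of the run, at 0, and the shaded band is the stretch of 55 other genes with a median of 51.9%. The solid and dashed lines mark equal levels and 50%. The highest values, such as that of BnaC05g47890D, are drawn capped.

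In the 18 other libraries labelled Lumen, the median of these 55 genes lay between 8.70 and 85.7% of the level in the 6 Solar libraries, with a median over libraries of 54.3%. In the 18 other libraries labelled Solar it lay between 57.7 and 103%, with a median of 83.0%, so the ranges overlapped. The lowest Solar values came from libraries in which the genes chosen by the rule were low. Control replicate 2 of optimal sowing at 14 DAF was at 57.7%. Control and shaded replicate 2 of optimal sowing at 7 DAF were at 60.4 and 60.9%. Shaded replicate 1 of late sowing at 7 DAF was at 60.9%. Without these libraries the lowest was 65.8%, and the ranges still overlapped. Shaded replicates 1 and 3 of optimal sowing at 7 DAF, with part of those genes at 0, were at 92.1 and 95.5%. By group, Lumen was lowest under shading at 7 DAF after optimal sowing (34.3, 30.8 and 30.8%) and highest in control at 14 DAF after optimal sowing (74.4, 53.5 and 85.7%). The genes before the stretch also differed between these groups, with medians of 85.7, 78.9 and 80.5% in the first. In the second they were at 117, 84.2 and 136%. The lowest value, 8.70%, was that of Lumen, control, late sowing, 7 DAF, replicate 2, whose genes before the stretch were also low, at 20%. The part of that library in any result was not tested.

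Some other members also had neighbours that were lower in Lumen, and how far such neighbourhoods reach was not measured. For 32 genes outside the run, at least 3 detected genes lay within 10 gene names on either side, and the median Lumen level of these neighbours, taken per gene, was 94.8% of Solar. It was under 75% for 8 of the 32 genes, and the share around genes outside the set was not computed. The lowest was that of BnaC02g02380D (20.6%, 6 neighbours), followed by BnaC05g39610D (20.8%), all 8 of whose neighbours had no overlap between the hybrids. BnaC05g14370D (31.4%), BnaC02g03100D (34.0%), BnaA07g08050D (34.5%) and BnaA03g44310D (41.6%) came next. Of the 175 neighbours in all, 38 (21.7%) lay above Lumen in every Solar library, where 9.83% of all genes did, and 1 was at 0 in Lumen. The neighbours of BnaA05g16320D (112%), BnaC03g03450D (116%) and BnaA05g32210D (133%) were not lower in Lumen. Most of the genes outside the run thus stood among neighbours detected in both hybrids.

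The response to shading was tested within the 3 control and 3 shaded Solar libraries of the late sowing date at 14 DAF. No gene of the 47 passed an adjusted p under 0.01 (limma, Benjamini-Hochberg adjustment over 55469 genes), where 0.514% of all genes tested did. When only the 24475 genes with at least 5 TPM in all 6 libraries were fitted, a level that every member has, 0 genes passed. In the fit of 55469 genes, 10 of the 47 genes and 11.7% of all genes had an unadjusted p under 0.05. The lowest adjusted p of a member was 0.172 (BnaA06g17370D). On the log2(TPM + 0.5) scale, which understates changes of low genes, 33 members had lower and 14 had higher means under shading. The median difference was −0.15, and that of all genes tested was 0. The share of all genes with lower means was not counted, and most of the 55469 genes lacked the level that every member has. Scaling the libraries to the same sum raised the differences, as in BnaC05g46940D (−0.40 to −0.31) and BnaCnng76110D (0.69 to 0.77). Whether the set as a whole leaned downward was not tested.

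**Figure D3:**
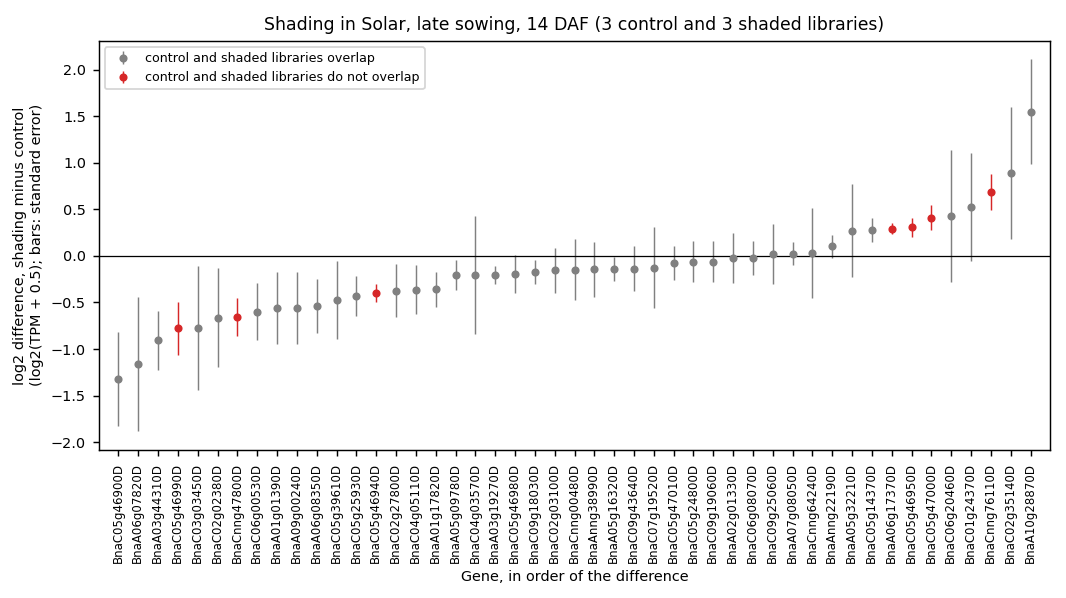
Shading minus control on the log2(TPM + 0.5) scale for each of the 47 genes in Solar, late sowing, 14 DAF, with the standard error of the limma fit (3 libraries per group). Red points are the 7 genes whose control and shaded libraries do not overlap, and no gene passed an adjusted p under 0.01.

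Control and shaded libraries did not overlap in 7 members, 4 with higher and 3 with lower values under shading. Over all genes tested, 5.32% did not overlap with shading higher and 5.83% with shading lower. BnaA06g17370D, whose values are given above, had a log2 difference of 0.29 (standard error 0.06, adjusted p = 0.172, limma). BnaCnng76110D had 7, 5 and 6 TPM in control and 8, 12 and 10 TPM in shaded libraries, a log2 difference of 0.69 (standard error 0.19, adjusted p = 0.291, limma). At these low levels, the steps of rounding are a large part of the difference.

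The other 5 non-overlapping members included 4 of the run on C05, and they did not point the same way. BnaC05g46950D (log2 difference 0.31, adjusted p = 0.367, limma) and BnaC05g47000D were higher under shading. BnaC05g47000D had 17, 18 and 21 TPM in control and 23, 29 and 23 TPM in shaded libraries, a difference of 0.41 (adjusted p = 0.359, limma). BnaC05g46990D had 43, 25 and 21 TPM in control and 15, 16 and 18 TPM in shaded libraries, a difference of −0.78 (standard error 0.29, adjusted p = 0.403, limma). BnaC05g46940D had 17, 18 and 18 TPM in control and 13, 12 and 15 TPM in shaded libraries, a difference of −0.40 (standard error 0.10, adjusted p = 0.223, limma). The last, BnaCnng47800D, had 13, 8 and 12 TPM in control and 7, 6 and 7 TPM in shaded libraries, a difference of −0.66 (adjusted p = 0.327, limma). Neighbours within the run thus had differences of opposite sign, none past the threshold.

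The largest differences belonged to genes whose groups overlapped. BnaA10g28870D had 13, 32 and 12 TPM in control and 88, 49 and 31 TPM in shaded libraries (log2 difference 1.55, standard error 0.56, adjusted p = 0.391, limma). BnaC05g46900D had 50, 35 and 16 TPM in control and 16, 13 and 8 TPM in shaded libraries (−1.32, standard error 0.50, adjusted p = 0.421, limma). BnaA06g07820D had 36, 50 and 11 TPM in control and 9, 8 and 23 TPM in shaded libraries (−1.16, standard error 0.72, adjusted p = 0.574, limma). In each of them a single replicate brought the groups together. These 3 were chosen after their values were seen.

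Whether the genes were also found in Solar outside the 12 libraries of the rule was asked in the other 36 libraries. In the 18 other libraries labelled Lumen, between 0 and 3 of the 47 genes were above 0 per library, and 26 of 846 values in all. At 0 in all 18 were 36 genes. Among the 11 others, BnaC06g20460D (*ELIP1*) was the exception in size, with 11 TPM in the highest and values above 0 in 7 of the 18 Lumen libraries. BnaA10g28870D and BnaA01g17820D reached 4 and 3 TPM in 1 Lumen library each, BnaC09g43640D reached 3 TPM and was above 0 in 6, and BnaA03g19270D reached 2 TPM.

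The 18 other libraries labelled Solar differed widely. In the late sowing date at 7 DAF, control replicates 1, 2 and 3 had 45 of the 47 genes above 0 each, with median levels of 60.3, 91.1 and 78.0% of the mean at 14 DAF. Shaded replicates 2 and 3 had 47 and 45 genes above 0 and medians of 97.1 and 96.0%, but shaded replicate 1 had 40 genes and a median of 17.5%. In the optimal sowing date at 14 DAF, shaded replicates 1 and 3 had medians of 105 and 101% and shaded replicate 2 had 63.2%. Control replicates 1, 2 and 3 had 80.4, 10.7 and 37.5%. Within such a library, most genes were lowered together rather than lost: control replicate 2 still had 37 of the 47 genes above 0.

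At 7 DAF in the optimal sowing date, the highest median of the 6 libraries labelled Solar was 34.9%. It was that of control replicate 1, and control replicate 3 had 30.4%, with 45 genes above 0 in each. Both lie above shaded replicate 1 of the late sowing date and below its other 5 libraries at 7 DAF. Replicate 2 had 1 gene above 0 in the control library and 2 in the shaded library, as few as libraries labelled Lumen. In both, that gene was the *ELIP1* copy BnaC06g20460D (12 and 11 TPM), which Lumen libraries at 7 DAF also contained, and the shaded one also had 1 TPM of BnaCnng00480D. The highest member, BnaA06g17370D, had 97 and 63 TPM in control replicates 1 and 3, 172 and 146 TPM in shaded replicates 1 and 3, and 0 in replicate 2 of both treatments.

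**Figure D4:**
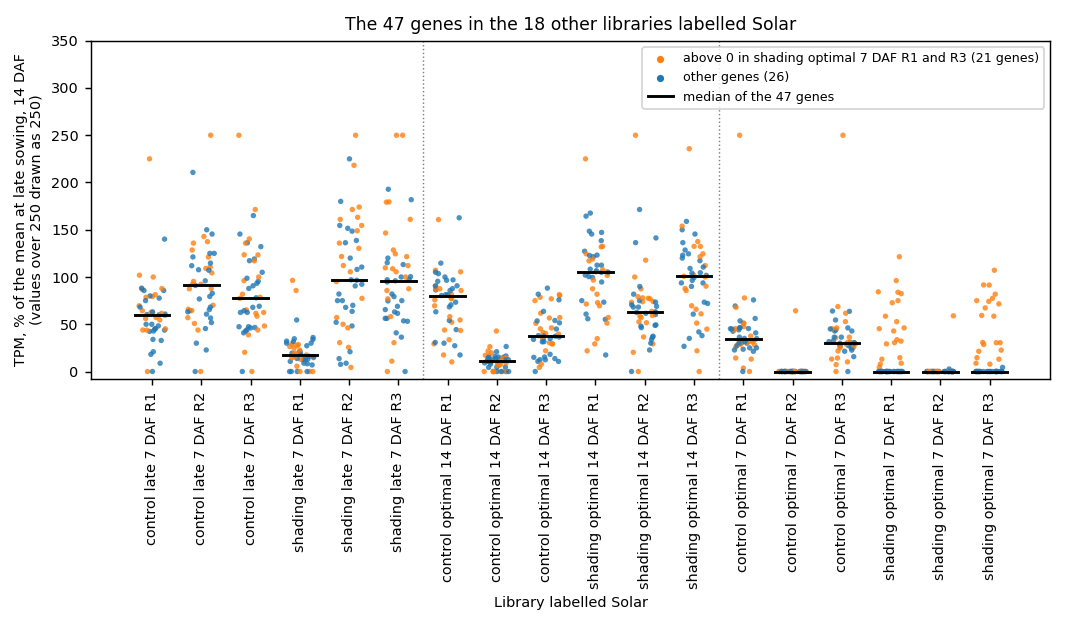
Level of each of the 47 genes (points) in the 18 other libraries labelled Solar, as a percentage of its mean in the late-sown libraries at 14 DAF, with the median per library (black line). Orange points are the 21 genes above 0 in shaded replicates 1 and 3 of optimal sowing at 7 DAF. In those 2 libraries the blue points lie at or near 0, while in the control libraries of the same setting both colours lie together.

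Shaded replicates 1 and 3 of this setting had another pattern, in which 1 part of the set was at 0 and the other was detected at widely differing levels. The same 21 genes were above 0 in both libraries, 25 genes were at 0 in both, and BnaA06g07820D had 1 TPM in replicate 3 only. The 21 genes were between 7.79 and 114% of their late-sown level at 14 DAF (median 43.9%). Of these, 10 were at 50% or more and 5 were under 20%. Among them were all 7 genes of the run on C05, which fell at both ends of that range. BnaC05g47000D (93.9%), BnaC05g46940D (80.6%), BnaC05g46950D (78.3%) and BnaC05g47010D (77.3%) were among the highest, and BnaC05g46900D (17.4%), BnaC05g46980D (14.6%) and BnaC05g46990D (13.0%) among the lowest. Outside the run, BnaC01g24370D (114%) and BnaA06g17370D (77.9%) were high and BnaC09g43640D (7.79%) was lowest. The 25 genes at 0 included 12 of the 16 on the A subgenome and 13 of the 31 on the C subgenome.

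The 25 genes were detected in other libraries labelled Solar as well. In control replicates 1 and 3 of the same setting, their medians were 36.4 and 30.4%, and those of the 21 genes were 32.3 and 29.3%. In the late sowing date at 7 DAF, shaded replicates 2 and 3 had medians of 92.3 and 79.2% for the 25 genes and 122 and 110% for the 21 genes. Where the whole set was low, the 25 genes were low too, with medians of 16.1% in shaded replicate 1 of late sowing at 7 DAF and 11.3% in control replicate 2 of optimal sowing at 14 DAF, against 18.2 and 9.16% for the 21 genes. In replicate 2 of optimal sowing at 7 DAF, 25 of the 25 were at 0 in the control and 24 in the shaded library. BnaA05g16320D (*DAD1*) is an example, with 0 TPM in shaded replicates 1 and 3 but 35 and 27 TPM in control replicates 1 and 3. BnaC05g25930D, with 0 against 15 and 13 TPM, and BnaA07g08050D, with 0 against 25 and 21 TPM, behaved likewise. The 2 groups of genes were formed from these 2 shaded libraries, so the comparison is a description.

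The 51 genes with the mirrored pattern, detected only in Lumen by the same rule, moved the other way in the same libraries. In the 18 other libraries labelled Lumen, their median level was between 73.9 and 98.6% of that in late-sown Lumen at 14 DAF. In control and shaded replicate 2 of Solar, optimal sowing, 7 DAF, 50 of them were above 0 in each, with medians of 93.3 and 89.4%. In control replicate 2 of optimal sowing at 14 DAF the median was 87.5%, and in shaded replicate 1 of late sowing at 7 DAF it was 78.9%. In the Solar-labelled libraries at or above 91% for the Solar genes, 2 or 3 of the 51 genes were above 0 and the median was 0%. In shaded replicates 1 and 3 of optimal sowing at 7 DAF, 49 and 46 of the 51 genes were above 0, with medians of 75.0 and 78.3% and quartiles of 25.5 to 129% and 23.3 to 108%. Whether the seed in these libraries was of the labelled hybrid throughout was not tested. The labels were kept as given, so each comparison of Solar with Lumen that follows compares libraries by label, and in the optimal sowing date at 7 DAF it includes libraries with few of the 47 and nearly all of the 51 genes.

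The rule's contrast was then tested in the 36 libraries it had not used, with control and shaded groups weighted equally (limma, Benjamini-Hochberg adjustment over 71131 genes). Seeds at 7 and 14 DAF came from plots of the same field design, so libraries of both times may share a plot. The fit treated all libraries as independent, also those of late sowing at 7 DAF, whose plots may have entered the rule. In the late sowing date at 7 DAF, 45 of the 47 genes were higher in Solar at an adjusted p under 0.01, where 7.63% of all genes tested were called in that direction and 15.2% in either. The log2 differences of the 45 ran from 2.53 to 8.46, led by BnaA06g17370D (standard error 1.06, adjusted p = 4.12e-06). Since Lumen was at or near 0, these differences depend on the 0.5 TPM added before the logarithm. In the optimal sowing date at 14 DAF, 45 genes were higher again (all genes: 2.81% in that direction, 4.79% in either), with differences from 2.48 to 8.11. Both times, the 2 genes not past the threshold were BnaC05g46900D and BnaA06g07820D.

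In the optimal sowing date at 7 DAF, 8 of the 47 genes were past the threshold, all higher in Solar, where 1.46% of all genes were past it in that direction and 2.57% in either. They were BnaA06g17370D, the 5 run genes BnaC05g46940D, BnaC05g46950D, BnaC05g46990D, BnaC05g47000D and BnaC05g47010D, and BnaC07g19520D and BnaCnng76110D. All 8 belong to the 21 genes seen in shaded replicates 1 and 3. Those 2 libraries formed the group of 21 and are also part of this test, so the match is a description. The number of genes past the threshold rested on single libraries. It was 31 without control replicate 2, 31 without both replicate 2 libraries, 16 without shaded replicate 2, and 0 without any 1 of the other 4 Solar-labelled libraries of the setting. The difference was positive in 46 of the 47 genes, and it was 0 for BnaA06g07820D, which had 1 TPM in a single library of each label.

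The difference between Solar and Lumen at 7 DAF was larger in the late than in the optimal sowing date for 20 of the 47 genes (limma interaction, adjusted p under 0.01), and smaller for 0. Over all genes, 2.92% were past the threshold in that direction and 6.02% in either. BnaC05g25930D, for example, had a log2 difference of differences of 4.37 (standard error 0.81, adjusted p = 0.000699, limma) and BnaA05g16320D of 4.77 (standard error 0.93, adjusted p = 0.00113, limma). Of the 20 genes, 17 were at 0 in shaded replicates 1 and 3 of optimal sowing. Both libraries are part of this test, and a 0 in them enlarges the difference between the sowing dates. The overlap is therefore a description. The levels of the whole set differed between the Solar-labelled libraries at 7 DAF as given above, and the part of the library labels in this result was not tested. Without both replicate 2 libraries of Solar at optimal sowing, 17 genes were past the threshold. Without shaded replicate 2 or shaded replicate 3 of the late sowing date, 13 genes were past the threshold.

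Levels at 7 and 14 DAF in the late sowing date are set side by side without a test, since the genes were chosen on the values at 14 DAF. Without shaded replicate 1, which was low for the whole set, the median gene at 7 DAF had 87.6% of its level at 14 DAF, and 30 of the 47 genes had a lower mean at 7 DAF. In 2 genes the level at 7 DAF was under 10%. BnaC05g46900D had 1 TPM in a single library and 0 in the other 4, against 8 to 50 TPM at 14 DAF. BnaA06g07820D had 2, 0 and 0 TPM in control and 2 and 0 TPM in shaded libraries, against 8 to 50 TPM at 14 DAF. They are also the 2 genes not past the threshold in the 2 tests above with 45 genes called. At 14 DAF in the optimal sowing date, they were at 12 TPM or less and at 8 TPM or less in each Solar-labelled library.

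Only BnaC06g20460D (*ELIP1*) was more than 200% of its 14 DAF level at 7 DAF. It had 42, 94 and 52 TPM in control and 92 and 104 TPM in shaded replicates 2 and 3, against 6 to 38 TPM at 14 DAF. In the optimal sowing date it had 77 and 65 TPM in control replicates 1 and 3 at 7 DAF, and between 8 and 60 TPM at 14 DAF. This is also the gene with the most values above 0 in Lumen, 6 of 7 of them at 7 DAF, so its absence from late-sown Lumen at 14 DAF did not hold at the earlier time.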

How the data were processed

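RNA of 48 seed samples was sequenced by the authors with paired reads, pseudo-aligned with kallisto (0.46 in the submitters' processing notes) to the *B. napus* cDNAs of Ensembl Plants (AST_PRJEB5043_v1) and normalized between libraries with sleuth. The deposited score is this normalized TPM as a whole number, by the authors. For 1109 genes and 45 libraries with readable unrounded values, the largest difference was 0.5 TPM. TPM keep no depth, so no interval that needs read counts is given, and no count test was used.

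Members and lists were chosen with earlier results of these data known. Values were used as log2(TPM + 0.5). Shading was tested with limma 3.58.1 (R 4.3.3, empirical Bayes with a trend) in 6 Solar libraries, over genes that reached 1 TPM in 3 or more of them, a filter that the choice of the 47 members already ensures. These 6 libraries were fitted alone because the other groups differ in these genes. The study's factorial fit of all libraries is an alternative. Solar and Lumen labels were compared in the 36 other libraries (12 group means, genes above 0 in any). P-values were adjusted by Benjamini-Hochberg over all genes tested, with a threshold of 0.01. Replicate p-values measure the spread between these samples.

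Named genes were the 10 highest members, members with non-overlapping control and shaded libraries, members above 0 in other Lumen libraries, members near each other, annotated members and those at the limits, and others are marked. Neighbours were read from the gene numbers in the names, which rise in steps of 10. Alternatives were other pseudocounts, scaling, filters, no trend, a threshold of 0.05, replicate blocks and left-out replicates. Leaving out each Solar-labelled library was added after seeing the data. Tests were checked on simulated data, in which the shading test missed most of the changes put in. A member not past its threshold may thus still respond to shading. Summaries and plots used Python 3.11.15, numpy 2.4.6, pandas 2.3.3 and matplotlib 3.10.9.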

Additional observations from a re-analysis of the deposited data

Results flagged for a closer look

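For 20 of the 47 genes, the difference between libraries labelled Solar and Lumen at 7 DAF was larger in the late than in the optimal sowing date by a test of the difference itself (limma interaction, Benjamini-Hochberg adjusted p under 0.01). The number was 17 without both replicate 2 libraries of Solar at optimal sowing, 5 without replicate 2, 0 without replicate 3 and 19 without replicate 1 of all groups. The median level of the 47 genes in the 6 Solar-labelled libraries of each setting lay between 17.5 and 97.1% in the late and between 0 and 34.9% in the optimal sowing date. Whether all of these libraries held the labelled hybrid was not tested.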

How the results depend on the processing

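The number of genes depended on the limits: 289 genes qualified at 1 TPM and 20 at 10 TPM in Solar, and 92 with up to 1 TPM in Lumen. Leaving out a replicate number gave 52 to 78 genes, with 78 without replicate 3. For shading, 0 members passed the threshold in each of the 18 alternatives. In 6 of them (rescaled sums, replicate block, at least 5 TPM, and without replicate 1, 2 or 3) 0 of all genes passed, so these say nothing about the members, and in the other 12 between 158 and 701 genes passed.

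In the optimal sowing date at 7 DAF, the 8 genes past the threshold became 3 with a pseudocount of 1, 5 without a trend, 18 at an adjusted p under 0.05 and 31 without both libraries of Solar replicate 2. Without a replicate number there were 0 to 23 (0 without 1 or 3), and without a single library, an alternative chosen after seeing the data, 0 to 31. For the late sowing date at 7 DAF (45 genes), the ranges were 13 to 44 (13 without replicate 3) and 45 to 45. For the optimal sowing date at 14 DAF (45 genes) they were 9 to 45 (29 without replicate 1, 9 without 3) and 42 to 46. The 20 genes whose difference changed with sowing date became 0 to 19 and 13 to 25, and 17 without both libraries of Solar replicate 2. Fits without a replicate number have fewer libraries per group. Otherwise the cause was not tested.

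A replicate block gave 0 genes for shading, 45, 11 and 44 for Solar against Lumen (late 7 DAF, optimal 7 DAF, optimal 14 DAF) and 19 for the interaction. The deviations of same-numbered samples correlated between −0.24 and −0.06 in the 3 pairs of the shading fit, and above 0.1 in 27 of the 54 pairs of the other fit. Samples with different numbers correlated between −0.19 and 0.34 in the shading fit. The correlations in the shading fit therefore do not show whether the numbers mark pairs. In the other fit, same-numbered samples lay between −0.29 and 0.61 and differently numbered ones between −0.64 and 0.43. There the numbers may mark pairs, which was not tested further. The main fits did not use the numbers as pairs. In all, 74 of 98 alternatives for these counts stayed within 1.5 times. The 74 include the 18 for shading, where 0 stayed 0, and in 6 of those 0 of all genes passed. Values near 0 are limited by rounding to whole TPM, and the unknown depth sets a limit that cannot be given.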
